A study of Oikopleura dioica with 12 samples.

Results

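A kinase of the mTOR pathway and its substrate were followed in the marine tunicate Oikopleura dioica: RPS6KB1 (GSOIDG00000569001), the ortholog of the S6 kinase, and RPS6 (GSOIDG00015546001), the ribosomal protein that this kinase phosphorylates. They were taken from the table of gene counts by identifier and not by a cutoff on their values, and are 2 of its 17212 genes. Earlier results of these data were known when they were chosen. Both passed the filter of at least 100 reads over all 12 libraries, which 14574 genes passed. Whole day 6 females had been held for 1.5 h in seawater with 1 μM Torin 1, an inhibitor of the kinase mTOR, or with DMSO as the vehicle control. Each sample of animals gave a library of total RNA and a library of ribosome-protected fragments (RPFs), which are stretches of mRNA shielded from nuclease by a ribosome, and there were 3 replicate samples of animals per treatment, each called a collection here. This gave 4 groups (RNA DMSO, RNA Torin 1, RPF DMSO and RPF Torin 1) of 3 libraries each. Animals of all groups were fed and kept alike, no genotype or transgene is named for any of them, and each library stands for a pool of females.

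S6 kinase is one of the best-known substrates of mTOR complex 1. Once mTOR has phosphorylated it, the kinase phosphorylates several proteins of the translation apparatus, among them RPS6, a protein of the small ribosomal subunit, and phosphorylated RPS6 is widely used as a readout of mTOR activity. In vertebrates, mTOR also acts on RPS6 in another way: the mRNAs for ribosomal proteins begin with a terminal oligopyrimidine (TOP) tract, and their translation falls when mTOR is inhibited. S6 kinases are not among the classical TOP mRNAs. In O. dioica the mRNAs of both genes carry the spliced leader, a short RNA joined to the 5′ end by trans-splicing, according to the ortholog table of the study. Sequencing measures the mRNA and its ribosomes, and says nothing of the phosphorylation of either protein.

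The RPS6KB1 model lies on scaffold 1 of the reference genome of the deposited annotation, from 1885984 to 1887707 on the minus strand, with 10 coding exons, 9 introns and a coding length of 1212 bp. It is the single co-ortholog of human RPS6KB1 and RPS6KB2. The RPS6 model lies on scaffold 66, from 158667 to 159609 on the minus strand, with 4 coding exons, 3 introns and a coding length of 729 bp. Each sits in a predicted operon, taken here as neighbours on one strand at most 60 bp apart. RPS6KB1 is the last of 3 genes, 46 bp behind GSOIDG00000570001, whereas RPS6 is the first of 2 genes, 26 bp ahead of GSOIDG00015545001. The other S6 kinase ortholog is RPS6KA1 (GSOIDG00014860001, scaffold 6, 108138 to 111868, minus strand, 11 coding exons), which stands for the RSK kinases that in mammals act downstream of ERK.

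Depth differed between the assays. The RNA libraries held 7520819 to 27462750 reads. RPF DMSO replicate 1 held 22889270 reads and the other 5 RPF libraries 91549 to 874562, so that 3 reads, the limit that a count of 0 allows, stood for 0.131 RPM (reads scaled to the library total) in the first and for up to 32.8 RPM in RPF Torin 1 replicate 3. Of the 882 RPS6KB1 fragments in DMSO, 868 (98.4%) came from replicate 1. The same library gave 25730 of the 26403 RPS6 fragments (97.5%). In 2 cases a pair of libraries stood apart from what their labels give, and these are the 4 libraries left out together below. RPF DMSO replicate 1 was most like RNA Torin 1 replicate 3 (Spearman correlation across genes 0.952, against at most 0.783 and 0.821 with their own groups). RNA DMSO replicate 2 and RNA Torin 1 replicate 2 were nearly equal, with a correlation of 0.996 and a mean chi-square per gene of 1.07, near sampling noise, against 26.6 to 849 in the other 14 pairs of RNA libraries. Other libraries were also most like one of another group. RNA Torin 1 replicate 1 was most like RNA DMSO replicate 1 (0.826, against at most 0.794 in its own group). RPF Torin 1 replicate 3 was most like RPF DMSO replicate 1 (0.765 against 0.752). RPF DMSO replicate 2 and RPF Torin 1 replicate 1 had 0.8743 with each other, against 0.8741 and 0.8740 in their own groups. Summed over 17 axoneme genes, a list drawn from these libraries by the study, the level was 80.3 to 277 RPM in RNA DMSO, 271 to 13326 RPM in RNA Torin 1, 1523 to 17602 RPM in RPF DMSO and 5145 to 17536 RPM in RPF Torin 1. All 17 had reads in every library except RPF Torin 1 replicate 3, which had 16. The part of these libraries and genes in the results on RPS6KB1 and RPS6 was not tested beyond leaving the libraries out.

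RPS6KB1 mRNA was lower in each Torin 1 library than in any DMSO library, but the difference did not pass the test. The 3 DMSO libraries had 2055, 1338 and 3884 reads, or 116, 105 and 141 RPM, and the 3 Torin 1 libraries had 312, 758 and 2087 reads, or 36.8, 101 and 77.8 RPM. The lowest DMSO value and the highest Torin 1 value, both from replicate 2, differed by less than their 95% counting intervals (99.9 to 111 and 93.7 to 108 RPM, Clopper-Pearson, counting error only), and these are the nearly equal libraries. On average the kinase had 121 ± 18.5 RPM in control animals and 71.8 ± 32.4 RPM after Torin 1 (mean ± SD, n = 3). Groups without overlap and lower in Torin 1 were found for 7.74% of the 14574 genes. The log2 fold change was −0.73 (SE 0.45, 95% interval −1.80 to 0.35), against a median of 0.22 for all genes, and edgeR's quasi-likelihood test gave an adjusted p of 0.452. Without RNA Torin 1 replicate 1 it was −0.39 (edgeR adjusted p = 0.921), and without the 4 libraries above, which leaves RNA DMSO replicates 1 and 3 and, of Torin 1, only replicate 1 with the lowest RPS6KB1 value, it was −2.02. The lone library is there assumed to vary like the other groups, and the adjusted p by edgeR was 0.0944. In such bulk samples, fewer cells of a type and less RNA per cell cannot be told apart.

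RPS6 mRNA stayed within the spread of the replicates. It had 25449, 24992 and 45710 reads in DMSO (1431, 1970.3 and 1664 RPM) and 12112, 14907 and 27171 reads in Torin 1 (1429, 1982 and 1013 RPM). Within replicate 1 and within replicate 2 the treatments were close to equal, but the libraries of replicate 2 were nearly equal across all genes. RNA Torin 1 replicate 3 was the lowest. Averages were 1688 ± 271 RPM in control animals and 1475 ± 486 RPM after Torin 1 (mean ± SD, n = 3), and the log2 fold change was −0.19 (SE 0.39, 95% interval −1.13 to 0.74, edgeR adjusted p = 0.756). Per kilobase of annotated exon, the RNA level of RPS6 in DMSO was 2072 ± 332 RPM, that of RPS6KA1 117 ± 7.67 RPM and that of RPS6KB1 96.7 ± 14.8 RPM (SD, n = 3). By RPM, RPS6 ranked 31 and RPS6KB1 1995 among the genes tested. Of the genes tested, 0.0% passed an adjusted p of 0.05 in the RNA comparison with edgeR, although before adjustment p was under 0.05 for 1465 higher and 4 lower genes, and DESeq2 called 81.

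**Figure D1:**
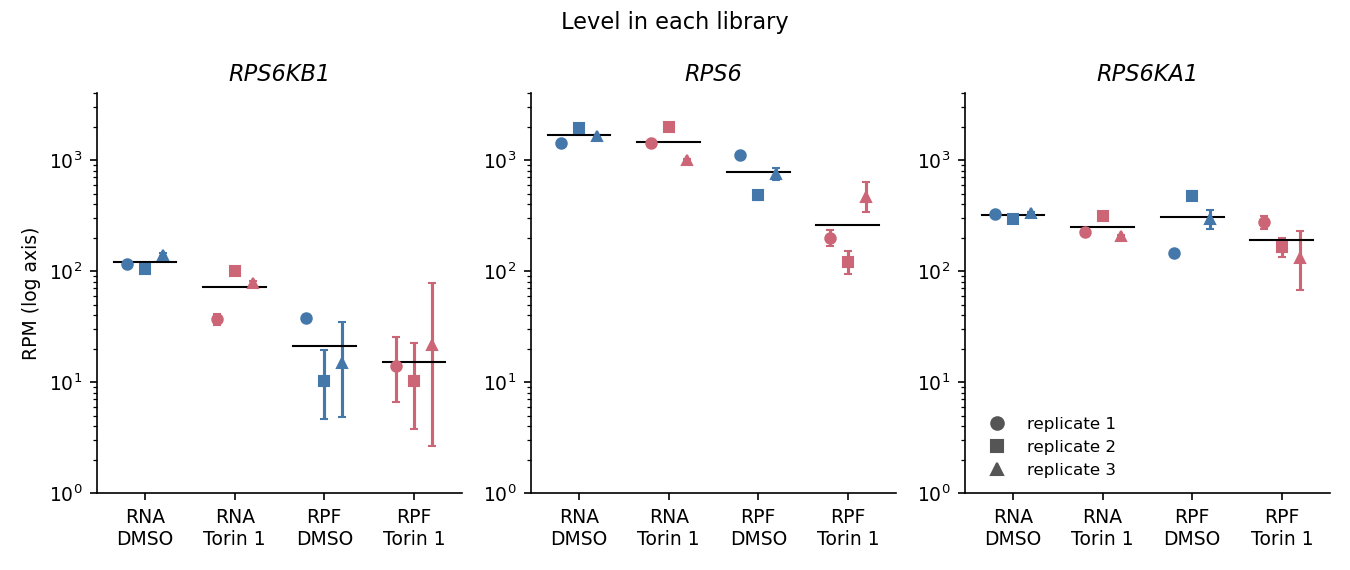
Level of RPS6KB1, RPS6 and RPS6KA1 in each library in RPM (log axis), by assay and treatment, with points for libraries, bars for 95% counting intervals and lines for group means. RPS6 fragments lie at 484 to 1124 RPM in DMSO and at 120.1 to 469.7 RPM in Torin 1, whereas RPS6KB1 fragments outside RPF DMSO replicate 1 rest on 2 to 10 reads and have wide intervals.

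In RPM, RPS6 fragments were lower in each Torin 1 library than in any DMSO library, and the difference did not pass the test over all genes. The DMSO libraries had 25730, 423 and 250 fragments, or 1124, 484 and 748 RPM. The Torin 1 libraries had 144, 70 and 43 fragments, or 200.4, 120.1 and 469.7 RPM. The groups came closest at RPF DMSO replicate 2 (95% counting interval 439 to 532 RPM) and RPF Torin 1 replicate 3 (339.9 to 633 RPM), whose intervals overlapped. A single gene took 42.7% of the reads of RPF Torin 1 replicate 3, against 2.73% in RPF DMSO replicate 2. The top gene took 21.2% in RPF Torin 1 replicate 1 and 17.9% in RPF DMSO replicate 3. RPM counts these reads in the library total, and whether the groups stay apart under other totals was not tested. Groups without overlap and lower in Torin 1 were found for 8.18% of the genes. The log2 fold change was −1.47 (SE 0.76, 95% interval −3.04 to 0.10), against a median of −0.24 for all genes, with an unadjusted p of 0.0650 and an adjusted p of 0.910 by edgeR. DESeq2 gave −1.39 with an unadjusted p of 0.0322, and no gene passed after adjustment. Without RPF DMSO replicate 1 the fold change was −1.17 (SE 0.68, edgeR adjusted p = 0.590), and without RPF Torin 1 replicate 3 it was −2.13 (SE 0.86, edgeR adjusted p = 0.944). Over all such omissions it lay between −2.20 and −1.06.

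RPS6KB1 fragments were few, and no difference between treatments was detectable at this depth. The DMSO libraries had 868, 9 and 5 fragments and the Torin 1 libraries 10, 6 and 2. In RPM these were 37.9, 10.3 and 14.95 in DMSO and 13.9, 10.3 and 21.8 in Torin 1. Apart from RPF DMSO replicate 1, all 5 values lay between 10.3 and 21.8 RPM in both treatments, and the counting interval of the 2 reads in RPF Torin 1 replicate 3 ran from 2.65 to 78.9 RPM. The log2 fold change was −0.54 (SE 0.75, 95% interval −2.09 to 1.01, edgeR adjusted p = 0.979). Its sign turned without RPF DMSO replicate 1 (0.24, SE 0.79, edgeR adjusted p = 0.961). RPS6KA1 fragments numbered 3328, 421 and 98 in DMSO and 198, 96 and 12 in Torin 1, or 145, 481 and 293 RPM against 276, 165 and 131 RPM. These groups overlapped, with a log2 fold change of −0.56 (SE 0.70, edgeR adjusted p = 0.969). In the RPF comparison, 0.0% of the genes tested passed an adjusted p of 0.05 with edgeR (before adjustment, p was under 0.05 for 190 higher and 600 lower genes), and DESeq2 called 0.

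Translational efficiency, the ratio of RPF to RNA in the same collection, was the measure by which the study asked which mRNAs depend on mTOR. For RPS6 the 3 DMSO collections had ratios of 0.786, 0.245 and 0.449, and the 3 Torin 1 collections had 0.140, 0.0606 and 0.464. The first and second Torin 1 collections lay below every DMSO collection, and the third lay within the DMSO range. The mean log2 ratio was −1.18 ± 0.84 in DMSO and −2.66 ± 1.48 in Torin 1 (SD, n = 3). They differed by −1.49, with p = 0.3 by exact permutation (two-sided, smallest possible 0.1) and an adjusted p of 0.375 over the 5 such tests made. The fit with an interaction of assay and treatment gave a log2 change in efficiency of −1.10 (SE 0.86, 95% interval −2.94 to 0.73, edgeR adjusted p = 0.891), against a median of −0.46 for all genes, and between −2.07 and −0.66 when libraries were left out.

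For RPS6KB1 the ratios were 0.328, 0.0976 and 0.106 with DMSO, against 0.378, 0.102 and 0.281 with Torin 1. The highest DMSO value came from RPF DMSO replicate 1, and both treatments had values near 0.1. The mean log2 ratio was −2.74 ± 0.98 in DMSO and −2.18 ± 0.99 in Torin 1 (SD, n = 3), a difference of 0.56 (two-sided exact permutation test, p = 0.6, adjusted p = 0.6 over the 5 tests). The fitted change in efficiency was 0.31 (SE 0.86, 95% interval −1.53 to 2.15, edgeR adjusted p = 0.999). Its sign turned without RNA Torin 1 replicate 1 (−0.08) and without both assays of replicate 3 (−0.16). It was 2.35 without the 4 libraries that stand apart, a value with 14 fragments of the kinase in DMSO, 18 in Torin 1 and a single RNA Torin 1 library, the one in which RPS6KB1 RNA was lowest. RPS6KA1 had ratios of 0.446, 1.62 and 0.868 in DMSO and 1.23, 0.520 and 0.630 in Torin 1, a range that overlapped, with a fitted change of −0.07 (SE 0.79, edgeR adjusted p = 0.999). With edgeR, 0.0% of the genes tested passed an adjusted p of 0.05 in efficiency (before adjustment, p was under 0.05 for 30 higher and 1093 lower genes), and DESeq2 called 145, neither member among them (adjusted p = 0.723 for RPS6 and 0.998 for RPS6KB1).

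**Figure D2:**
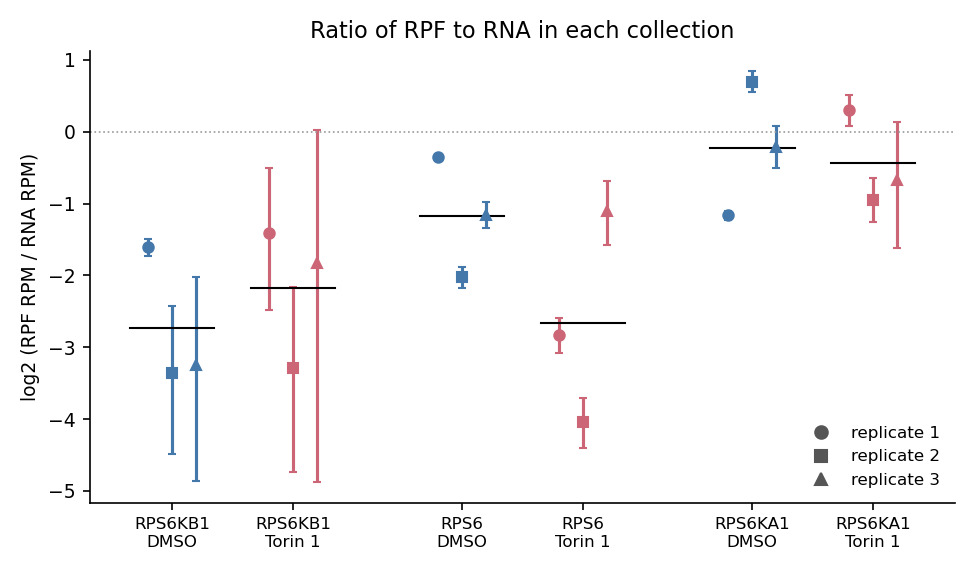
Log2 ratio of RPF to RNA in each collection for RPS6KB1, RPS6 and RPS6KA1, with points for collections, bars for 95% counting intervals and lines for the mean of each treatment. RPS6KB1 lies below 0 in all 6 collections, and the third Torin 1 collection of RPS6 (−1.11) lies within the range of DMSO (−2.03 to −0.35).

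Within DMSO animals, fragments of RPS6KB1 were lower than its RNA level, and this was the one comparison in which a member passed the test. The RNA of the kinase lay at 105 to 141 RPM and its fragments at 10.3 to 37.9 RPM. The groups did not overlap, as in 28.2% of the genes tested with RPF below RNA. The log2 difference of RPF from RNA was −2.20 (SE 0.56, 95% interval −3.43 to −0.96, edgeR adjusted p = 0.0368), against a median of 0.17 for all genes, and 222 of the 14574 genes (1.52%) had a lower value. In this direction 1.21% of the genes were called (176 genes, and 310 with the collection as a block, where RPS6KB1 had −2.38 with an edgeR adjusted p of 0.0142). DESeq2 gave −2.14 (adjusted p = 0.00895). Without RPF DMSO replicate 1, the deep library, the value was −3.15 (SE 0.48, edgeR adjusted p = 0.00279), in a fit that called 12.9% of genes in this direction. Without both this library and RNA DMSO replicate 2 it was −3.21 (edgeR adjusted p = 1.5e-04), with 9.91% called.

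The direction of this difference held whichever library was left out, and its call did not. Without RNA DMSO replicate 1, 2 or 3 the log2 difference of RPS6KB1 was −2.31, −2.31 and −1.96 (edgeR adjusted p = 0.0599, 0.0715 and 0.170). Leaving out RPF DMSO replicate 2 gave −1.87, and leaving out replicate 3 of that group gave −2.02 (edgeR adjusted p = 0.0811 and 0.161). Without both libraries of replicate 2 it was −2.01, and without both of replicate 3 it was −1.78 (edgeR adjusted p = 0.124 and 0.394). The count of genes called fell in these fits too, from 176 to between 0 and 57.

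RPS6 and RPS6KA1 did not pass this test in DMSO. RPS6 fragments (484 to 1124 RPM) lay below its RNA (1431 to 1970.3 RPM) in every library, as in 28.2% of the genes tested. The log2 difference was −0.86 (SE 0.54, edgeR adjusted p = 0.311). RPS6KA1 had a difference of 0.24 (SE 0.56, edgeR adjusted p = 0.807), and its fragments (145 to 481 RPM) overlapped its RNA (297 to 338 RPM). Within Torin 1 animals both members had fragments below RNA without overlap, as did 31.2% of the genes. The log2 difference was −1.97 for RPS6KB1 (SE 0.74, 95% interval −3.56 to −0.37, edgeR adjusted p = 0.378) and −2.05 for RPS6 (SE 0.84, 95% interval −3.85 to −0.26, edgeR adjusted p = 0.382), against a median of −0.42 for all genes. The unadjusted p was 0.0195 and 0.0280. Of the genes tested, 0.0% passed after adjustment in Torin 1 animals with edgeR (before adjustment, p was under 0.05 for 417 higher and 1342 lower genes), whereas 106 passed with the collection as a block and 148 with DESeq2. The RPS6KB1 value without RNA Torin 1 replicates 2 and 3, which leaves 1 RNA library, was −0.76.

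**Figure D3:**
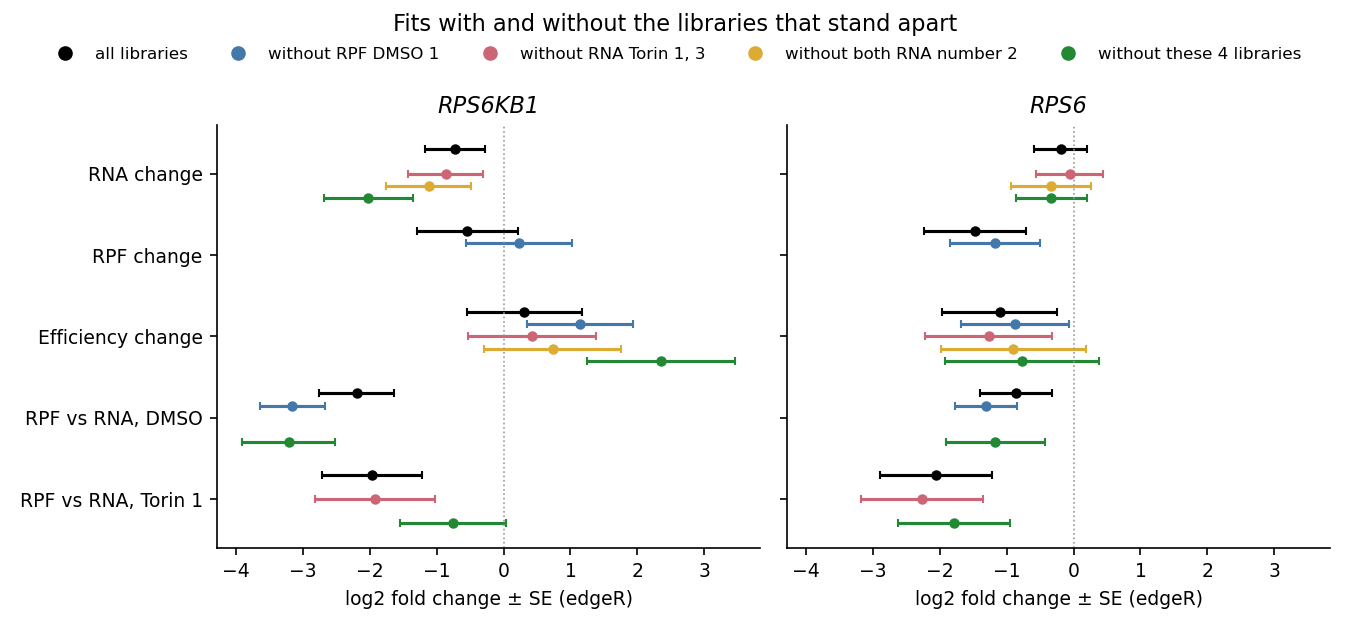
Fitted log2 fold changes of RPS6KB1 and RPS6 with their standard errors in the 5 comparisons, with all libraries and without the libraries that stand apart. The RPF of RPS6KB1 relative to RNA in DMSO stays negative (−2.20, −3.15 and −3.21), whereas its change in efficiency moves from 0.31 to 2.35.

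The 2 genes were then set against each other within each library, a comparison that needs no scaling between libraries. In RNA, the log2 of RPS6 reads over RPS6KB1 reads took the values 3.63, 4.22 and 3.56 for the DMSO libraries and 5.28, 4.30 and 3.70 for the Torin 1 libraries, which overlapped (mean difference 0.62, two-sided exact permutation test, p = 0.2). Among fragments, the values were 4.89, 5.55 and 5.64 for DMSO against 3.85, 3.54 and 4.43 for Torin 1. Each Torin 1 value lay below each DMSO value, as it did when RPS6 was set against 30.5% of the 7880 other tested genes with a read in every library. The mean difference was −1.42 (two-sided exact permutation test, p = 0.1, the smallest possible, adjusted p = 0.25 over the 5 tests).

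The efficiency of RPS6 relative to that of RPS6KB1 did not overlap between the treatments either, as was so against 11.2% of those 7880 genes, and the difference did not pass the test. In DMSO the log2 ratio of RPF to RNA was higher for RPS6 than for the kinase in every collection, by 1.26 (95% interval 1.14 to 1.38), 1.33 (0.39 to 2.47) and 2.09 (0.84 to 3.72). In Torin 1 the difference was −1.43 (−2.37 to −0.33), −0.75 (−1.95 to 0.75) and 0.72 (−1.22 to 3.82). These intervals are exact conditional ones for counting error only, and those of the second and the third Torin 1 collection include 0. The mean was 1.56 ± 0.46 in DMSO and −0.49 ± 1.10 in Torin 1 (SD, n = 3). The difference between treatments was −2.05 (two-sided exact permutation test, p = 0.1, the smallest that 3 against 3 collections allow, adjusted p = 0.25 over the 5 tests), and it lay between −2.65 and −1.57 when 1 collection was left out. Outside RPF DMSO replicate 1 these values rest on 2 to 10 fragments of the kinase per library. Set against RPS6KA1 instead, the efficiency of RPS6 differed by 0.82, −2.72 and −0.95 in DMSO and −3.13, −3.10 and −0.44 in Torin 1, which overlapped.

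**Figure D4:**
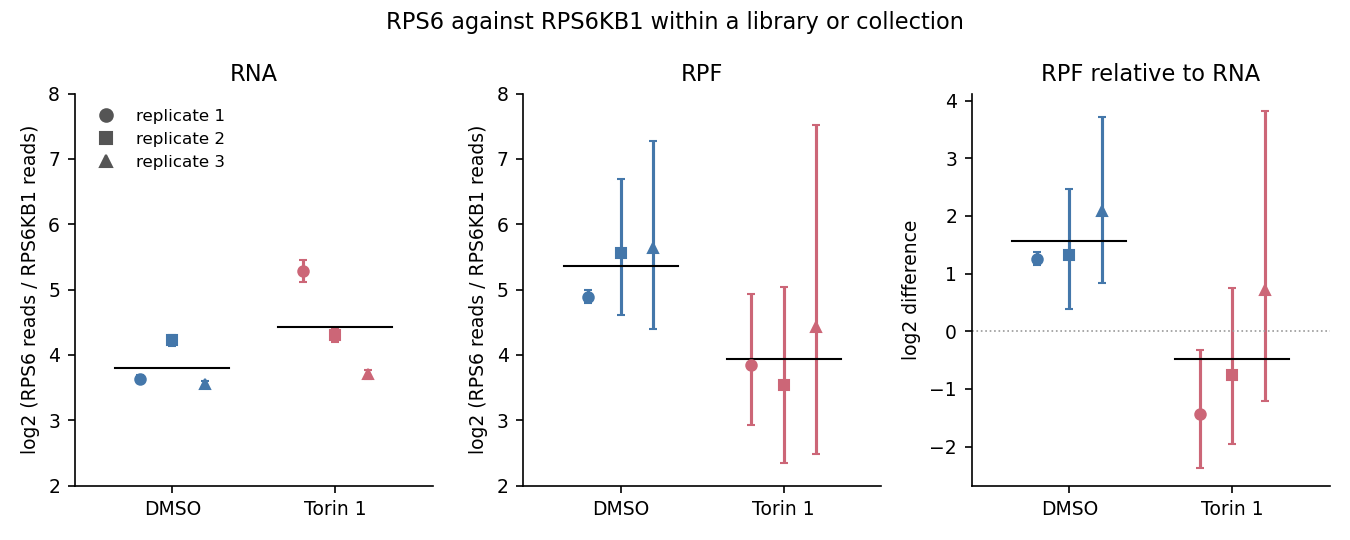
RPS6 against RPS6KB1 within each library (RNA and RPF, log2 of the ratio of reads) and within each collection (difference in log2 ratio of RPF to RNA), with 95% counting intervals and lines for the mean of each treatment. RNA overlaps between treatments, whereas RPFs (4.89 to 5.64 against 3.54 to 4.43) and the efficiency difference (1.26 to 2.09 against −1.43 to 0.72) do not.

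Among the 26 orthologs of small-subunit proteins, RPS6 was one of the most abundant and near the middle in its response. By RPM it ranked 2 of 26 in RNA in both treatments, and 2 in DMSO and 3 in Torin 1 in RPFs. Per kilobase it ranked 5 in RNA and 6 in RPFs. It took 7.11% of the RNA reads of the 26 genes in DMSO and 7.25% in Torin 1, and 6.71% and 6.499% of their fragments. Counted from the lowest log2 change, it ranked 15 in RNA, 14 in RPFs and 12 in efficiency. The medians of the list were −0.20 in RNA, −1.47 in RPFs and −1.07 in efficiency, with 25, 26 and 26 of the 26 negative, against 44.2%, 61.0% and 66.3% negative over all genes. None of the 26 passed after adjustment in these comparisons with edgeR, and 0, 14 and 1 were lower at an unadjusted p under 0.05. Over all genes tested, 4 of 14574, 600 of 14573 and 1093 of 14574 were lower at that threshold.

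The 4 small-subunit genes nearest to RPS6 in RNA level were RPS3A, RPS27A, RPS2 and RPS23, all structural parts of the 40S subunit, with RPS27A made as a fusion with ubiquitin. In RPFs their log2 changes were −1.47 for RPS3A (SE 0.76), −1.43 for RPS23 (SE 0.72), −1.15 for RPS2 (SE 0.74) and −0.85 for RPS27A (SE 0.73), beside −1.47 for RPS6. In RPM, RPS3A and RPS23 had fragment levels in Torin 1 below those in DMSO without overlap, like RPS6 and 8.18% of all genes tested. RPS2 and RPS27A overlapped. In efficiency, RPS3A, RPS23, RPS2 and RPS27A had −1.10, −1.02, −0.61 and −0.50. None of these differences passed after adjustment by edgeR.

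**Figure D5:**
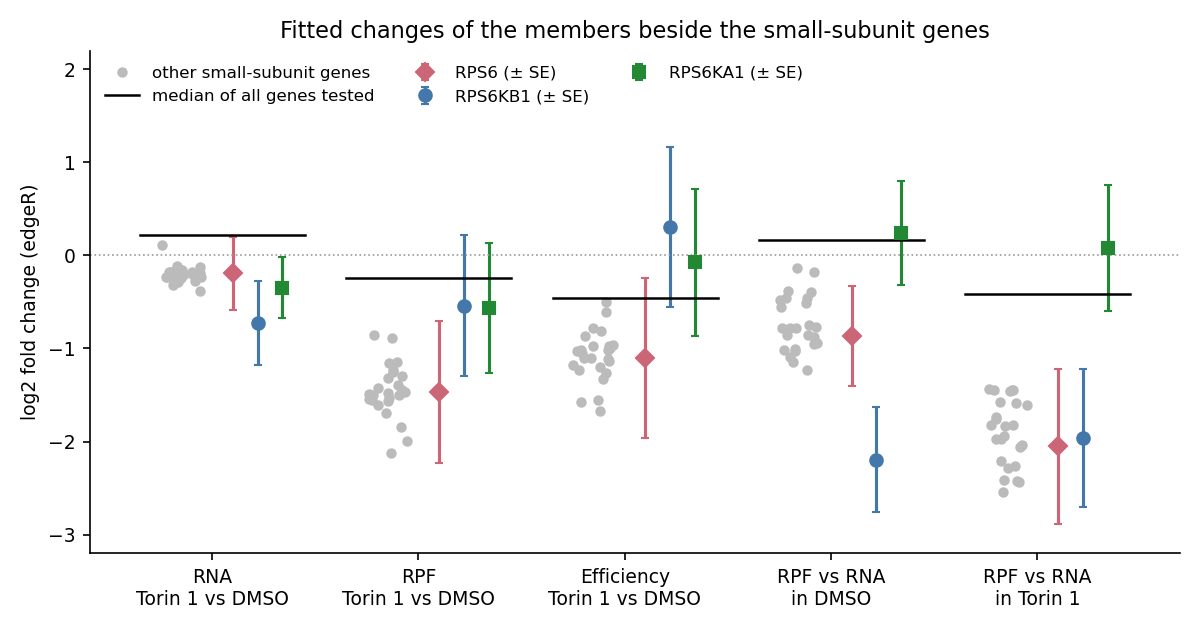
Fitted log2 changes of RPS6, RPS6KB1 and RPS6KA1 (with standard errors) beside the other 25 small-subunit genes (grey points) and the median of all genes tested (black lines) in the 5 comparisons. RPS6 lies within the small-subunit genes in each, and RPS6KB1 lies below them in the RPF to RNA difference in DMSO (−2.20, against −1.23 for the lowest, RPS2).

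Other parts of the translation apparatus gave the following counts. Of the 46 large-subunit orthologs, 45 had a negative RPF change (median −1.46) and 44 a negative change in efficiency (median −1.07). Over all genes tested the medians were −0.24 in RPFs and −0.46 in efficiency, with 61.0% and 66.3% negative. The 4 elongation factors had medians of −2.21 and −1.97, the 4 initiation factors −1.21 and −0.50, and the 6 other TOP orthologs −1.15 and −0.98, again in RPFs and in efficiency. None of these 60 genes passed in either comparison after adjustment with edgeR. The lists follow orthology with human genes, and their direction in these libraries was known when the members were chosen.

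The operon neighbours of the 2 genes were read for the same libraries. GSOIDG00000570001, the model 46 bp upstream of RPS6KB1 on the same strand (1887754 to 1889056), had 97 to 236 reads in RNA except in RNA Torin 1 replicate 3, where it had 24815. In RPFs it had 25527 fragments in DMSO replicate 1 and 10 to 17 in the other 5 libraries. It was thus at 925 and 1115 RPM in the pair of libraries that resemble each other and at 3.53 to 109 RPM elsewhere. Its RNA was higher in each Torin 1 library (15.02 to 925 RPM) than in any DMSO library (3.53 to 13.1 RPM). The closest values, 13.1 and 15.02 RPM, came from the nearly equal libraries of replicate 2. Their counting intervals overlapped (11.2 to 15.2 and 12.4 to 18.1 RPM). The share of all genes higher in Torin 1 without overlap was not counted, so nothing particular to this gene can be read from it. Of the 14574 genes tested, 8138 had a positive RNA change. RPS6KB1 was at 77.8 and 37.9 RPM in the pair of libraries that resemble each other. Its RNA value there lay between the other Torin 1 values, and its RPF value was the highest of the 6. The part of the neighbour in the count of RPS6KB1 was not tested.

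GSOIDG00000571001, the first gene of that operon (1889086 to 1889614, minus strand), was lower in each Torin 1 RNA library than in any DMSO library, as was the kinase. It had 18.3, 16.0 and 25.2 RPM in DMSO and 9.79, 14.8 and 15.03 RPM in Torin 1. GSOIDG00000567001, 800 bp downstream of RPS6KB1 and outside the predicted operon, had 89.6, 81.0 and 123 RPM in DMSO and 55.7, 77.7 and 64.9 RPM in Torin 1. These RNA groups did not overlap either, and 7.74% of the 14574 genes parted in this direction. For GSOIDG00000567001 the closest values, 81.0 and 77.7 RPM, came from the nearly equal libraries of replicate 2. Their counting intervals overlapped (76.1 to 86.1 and 71.5 to 84.2 RPM). So did those of the closest values of GSOIDG00000571001, 16.0 and 15.03 RPM (13.9 to 18.4 and 13.6 to 16.6 RPM).

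GSOIDG00015545001, which follows RPS6 (158199 to 158640), had far fewer reads than RPS6 in every library. Its RNA was at 45.9, 37.6 and 65.2 RPM in DMSO and at 21.2, 41.1 and 32.7 RPM in Torin 1. Its fragments numbered 354, 16 and 4 in DMSO and 13, 6 and 1 in Torin 1, at 12.0 to 18.3 and 10.3 to 18.1 RPM. These groups overlapped, but outside RPF DMSO replicate 1 they rest on 1 to 16 fragments per library. The 1 read in RPF Torin 1 replicate 3 had a counting interval of 0.28 to 60.9 RPM. At this depth a fall like that of RPS6 fragments could not be told from none. On the other side, GSOIDG00015547001 begins 82 bp away on the plus strand and had 11 to 35 reads in RNA and no fragment outside RPF DMSO replicate 1, where it had 36.

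Across all 12 libraries, the log2 CPM of the 2 genes had a Pearson correlation of 0.80, given as a description since both vary with the assay and with depth. Of 7881 tested genes with a read in every library, those most like RPS6 were RPL35 (0.998), RPL36AL (0.994), RPS3A (0.994), RPS20 (0.993) and RPL30 (0.993), all ribosomal proteins. Of its 100 most similar genes 56 were ribosomal protein genes, of 69 in the comparison. Those most like RPS6KB1 were GSOIDG00009476001 (0.993) and GSOIDG00017242001 (0.989), followed by 3 further models at 0.987, for which no symbol was used here. Of its 100 most similar genes 1 was a ribosomal protein gene, near the share of such genes in the comparison (70 of 7881). In all, 1305 genes were more like the kinase than RPS6 was.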

How the data were processed

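Total RNA and RPFs of day 6 females were sequenced in 12 libraries (2 treatments, 3 collections). Per the methods of the study, the authors filtered out rRNA and tRNA reads (Bowtie2 2.1.0), aligned what remained to the genome (TopHat2 2.0.13) and counted reads per gene (featureCounts). The deposited table holds raw counts per gene and library. The strand setting and the treatment of reads with several positions are not given in the sources used here, and both members have same-strand neighbours close by. Other values, namely positions of 18020 gene models counted from 1, came from the deposited annotation and gave exons, lengths and neighbours. All columns were mapped, leaving 0 unmapped.

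RPM are counts over the library total. Genes with at least 100 reads were tested with edgeR 4.0.16 in R 4.3.3 (TMM factors, quasi-likelihood F-test, Benjamini-Hochberg adjustment over all genes, threshold 0.05), with DESeq2 1.42.0 as an alternative. An interaction of assay and treatment over 12 libraries stood in for babel, the package of the study. Standard errors were derived from log2 fold change and F. Only the edgeR fits were tested on simulated counts, at a fixed dispersion that was not taken from these libraries. Single values used exact permutation tests (scipy 1.17.1), and counting intervals are 95%. log2 CPM used a prior count of 2.

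Apart from the 2 members, genes were named by rule: RPS6KA1, the 4 small-subunit genes nearest to RPS6 in RNA level, operon and next neighbours, and per member the 5 genes most like it, of which 2 without a symbol are printed. RPL5 and RPLP2, beyond the plus-strand neighbour of RPS6, are not described. Members and lists were chosen with earlier results of these data known. By the methods of the study, the RNA and RPFs of a number come from one collection, which pairs them. Between RNA and RPFs of a number, the correlation of deviations from the group mean was 0.0064, −0.10 and −0.086 in DMSO. In Torin 1 it was 0.18, −0.12 and 0.14, so the counts show little of this pairing. Whether a number also ties the treatments to one round of collection is not stated for the libraries. The correlation of deviations across treatments was 0.66, −0.13 and 0.20 in RNA, and the fits without a block are given.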

Additional observations from a re-analysis of the deposited data

How the results depend on the processing

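RPS6 kept its direction and stayed short of the threshold in all 5 comparisons under every alternative, and the 5 values tested by permutation kept their direction. For RPS6KB1 the sign turned in RPFs without RPF DMSO replicate 1 (0.24) or without both libraries of replicate 1 (0.08), within −0.91 to 0.24 when libraries were left out, and in efficiency without RNA Torin 1 replicate 1 (−0.08) or without the libraries of replicate 3 (−0.16), within −0.16 to 1.14. Its RPF to RNA difference in DMSO ran from −3.23 to −1.78 in those fits and passed the threshold in 7 of 14 alternatives. With the collection as a block it was −2.38, and the block changed no call of either gene. With the replicate number as a block, the RNA change of RPS6KB1 was −0.84 and of RPS6 −0.21. At 10 reads in every library, RPS6KB1 was dropped from all fits with RPFs and has no value. Omitting TMM factors moved the median of all genes from 0.17 to −0.12 for RPF against RNA in DMSO and from −0.42 to −0.88 in Torin 1. Relative to it RPS6KB1 had −2.36 and −2.31 in DMSO. It also moved the medians of RPF changes from −0.24 to −0.36 and of efficiency from −0.46 to −0.71, and RPS6 had −0.65 and −0.70 relative to the latter. The cause of these shifts was not tested.

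Counts of genes called depended more on the setting. With DESeq2 they were 81 in RNA and 145 in efficiency, against 0 and 0 with edgeR. For RPF against RNA, the counts here are of RPF lower in DMSO and of both directions in Torin 1. RPF higher in DMSO was called for 990 genes with edgeR and 1197 with DESeq2. In the counts used here DESeq2 gave 587 in DMSO and 148 in Torin 1, against 176 and 0 with edgeR. In DMSO the count was 624 without TMM factors, 9 at 10 reads in every library (fewer genes tested), 310 with the replicate block, 1441 without the libraries that stand apart and 0 to 1881 when libraries were left out. In Torin 1 it was 3 without the filter, 106 with the replicate block, 1107 without the libraries that stand apart and 0 to 565 when libraries were left out. In RPFs it was 4 without the filter and 0 to 207 when libraries were left out, and in efficiency it was 11 without the 4 libraries. The leaving out of pairs or of all 4 such libraries was chosen after the data were seen. RPS6KB1 had 2 to 10 fragments in 5 of 6 RPF libraries. Fits that keep 1 RNA Torin 1 library assume that it varies like the other groups.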
